A study of Mus musculus with 14 samples.

Results

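The cholinergic genes examined here were 10 genes that make, load, recover, break down or sense acetylcholine, picked by symbol from the 36118 genes in the table of hippocampal RNA. All 10 were found and all 10 were among the 16637 genes expressed well enough to be tested. They comprised Chat (choline acetyltransferase, which makes acetylcholine), Slc18a3 (the vesicular acetylcholine transporter), Slc5a7 (the high-affinity choline transporter), Ache (acetylcholinesterase), the muscarinic receptor genes Chrm1, Chrm2, Chrm3 and Chrm4, and the nicotinic receptor subunit genes Chrna4 and Chrna7. The mice were wildtype (WT) or Gsdmd knockout (KO), with the breed given as C57/BL6 in the labels and the knockout line as C57BL/6N in the study's methods. The study asked how losing gasdermin D, a pore-forming protein of inflammatory cell death, changes the effect of neonatal hyperoxia on the brain. Pups breathed room air (RA) or 85% O2 (O2) from postnatal day 1 to 14, and the hippocampus was taken on postnatal day 15. The WT-RA and WT-O2 groups held 4 mice each and the KO-RA and KO-O2 groups 3 each, with 1 library per mouse. The knockout was global, so the deletion was present in every cell of the KO mice in both exposures, and the WT mice were littermates from heterozygous parents. The mouse numbers of the KO animals ran higher than those of the WT animals, and a cohort difference and genotype cannot be told apart.

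Acetylcholine is made in nerve endings from choline and acetyl-CoA, packed into vesicles, released, split in the synaptic cleft, and its choline is taken back up. The hippocampus receives most of its acetylcholine from neurons of the medial septum and diagonal band in the basal forebrain, whose cell bodies, and therefore most of whose mRNA, lie outside the hippocampus. Cholinergic interneurons are abundant in the striatum, and neurons of the medial habenula are also cholinergic. Hippocampal cells respond through muscarinic receptors, of which Chrm1 and Chrm3 couple to phospholipase C and Chrm2 and Chrm4 inhibit adenylyl cyclase, and through nicotinic ion channels. Chrna7 encodes the subunit of the homomeric nicotinic receptor, and Chrna4 encodes a subunit that pairs with beta subunits.

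The libraries held between 27272270 and 28257496 estimated counts. Gsdmd itself was at 1.47 to 2.23 CPM, counts per 1000000 counts, in WT mice and at 0.817 to 1.5 CPM in KO mice, so the ranges overlapped. The counts cover the whole gene and do not show whether the deleted part was read. The paper itself reports undetectable GSDMD by immunostaining in KO brains. It also reports no measurable Gsdmd transcripts there by qRT-PCR, without showing those data. A list of 12 hippocampal principal neuron markers summed to between 1044 and 2203 CPM over the 14 libraries, so the labelled tissue was represented in each. Markers of neighbouring regions were also present and varied between libraries. The public record of mouse GSD408 names hyperoxia in its title but room air as its treatment, and it was kept in WT-O2.

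Chat and Slc18a3 share a locus, and its sequence is shown because these were the members with the widest differences between genotypes. In the GENCODE M21 annotation of GRCm38, the single exon of Slc18a3, 2413 bases long, lies inside an intron of Chat on the same strand and shares 0 bases with the exons of Chat. The RefSeq start sites of the pair are 1059 bases apart. The bases before the start sites are printed below from RefSeq (GRCm38.p6) for these genes, for Slc5a7 as the third presynaptic gene, and for Chrm2 as the receptor gene with the widest difference. Capitals mark matches on either strand to 1 of 5 motifs. These were TAATTA (a core bound by many homeodomain factors), TGACGTCA (the cAMP response element), CACGTG and, as another E-box, CAGCTG, and the GC box core GGGCGG, which reads CCGCCC when it lies on the other strand. The Chat window is chr14:32465990-32466159 on the minus strand and stops 80 bases before the RefSeq start, where annotated Chat exons begin. The windows of the others end at the start site, and they are chr14:32464851-32465100 (minus) for Slc18a3, chr17:54299035-54299284 (minus) for Slc5a7 and chr6:36387834-36388083 (plus) for Chrm2.
Chat: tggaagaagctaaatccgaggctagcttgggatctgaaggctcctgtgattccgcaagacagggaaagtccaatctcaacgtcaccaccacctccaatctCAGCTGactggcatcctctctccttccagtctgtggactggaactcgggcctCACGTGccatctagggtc
Slc18a3: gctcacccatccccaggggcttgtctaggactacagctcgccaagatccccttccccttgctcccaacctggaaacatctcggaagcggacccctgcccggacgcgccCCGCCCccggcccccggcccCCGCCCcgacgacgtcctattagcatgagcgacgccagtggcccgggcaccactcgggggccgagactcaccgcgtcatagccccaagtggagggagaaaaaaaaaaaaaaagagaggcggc
Slc5a7: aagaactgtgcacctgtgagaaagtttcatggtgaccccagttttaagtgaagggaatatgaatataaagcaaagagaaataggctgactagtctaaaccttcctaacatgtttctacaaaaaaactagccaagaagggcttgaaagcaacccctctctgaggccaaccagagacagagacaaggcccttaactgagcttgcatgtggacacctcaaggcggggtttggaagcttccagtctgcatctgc
Chrm2: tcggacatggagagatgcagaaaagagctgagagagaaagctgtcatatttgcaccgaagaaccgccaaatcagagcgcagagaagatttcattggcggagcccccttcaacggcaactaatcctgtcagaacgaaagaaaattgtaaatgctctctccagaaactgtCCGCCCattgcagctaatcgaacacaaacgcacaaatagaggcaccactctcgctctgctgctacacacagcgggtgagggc
The Chat window held CAGCTG 150 bases and CACGTG 98 bases before the start, and neither stood in the Slc18a3 window. The Slc18a3 window held GGGCGG 142 and 122 bases before the start, and the Chrm2 window held it 82 bases before. None of the 5 motifs stood in the Slc5a7 window. Over all 32851 RefSeq promoters of 300 bases, 250 before the start and 50 after it, 35.7% held GGGCGG, 16.3% CAGCTG, 7.15% CACGTG, 5.29% TAATTA and 1.79% TGACGTCA. Among the 7 members that passed the thresholds in both genotype comparisons, GGGCGG was found in the windows of Slc18a3, Ache, Chrm2, Chrm4 and Chrna4. The rule that cut the Chat window would leave out all 250 bases before the Ache start and 128 before the Chrna4 start. GC content was 67% for Slc18a3, 74% for Ache, 70.7% for Chrm4 and 74.3% for Chrna4. It was 52.7% for Chrm2 and for the median of all promoters. A match describes these letters and is not evidence of a bound site.

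The genotype comparisons asked whether the KO hippocampus differed from the WT hippocampus within each exposure. The genes for making and moving acetylcholine were far lower in KO mice, and the receptors divided, with Chrm2, Chrm4 and Chrna4 lower and Chrm1, Chrm3 and Chrna7 higher in at least 1 exposure. A gene was called when it changed by at least 25%, p was below 0.05 and the Benjamini-Hochberg adjusted p over all genes tested (q) was below 0.1. Under hyperoxia, 9 of the 10 members passed in KO mice against WT mice, 7 lower and 2 higher, where 6.86% of all genes passed in either direction and 4.35% passed as lower. In room air, 8 of the 10 passed, 7 lower and 1 higher, where 10.4% of all genes passed and 6.7% passed as lower. The median log2 fold change of the members was -0.77 under hyperoxia and -0.68 in room air, and that of all genes tested was -0.01 in both. The ranges of the groups did not overlap for 10 of 10 members under hyperoxia and for 7 of 10 in room air, where they did not overlap for 19% and 19.6% of all genes. The count under hyperoxia was 5 without KO-O2 mouse GSD495, where the share of all genes that passed fell as well, to 4%. The count in room air was 5 without KO-RA mouse GSD489, where 6.37% of all genes passed. The 2 genotype comparisons used separate mice.

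**Figure D1:**
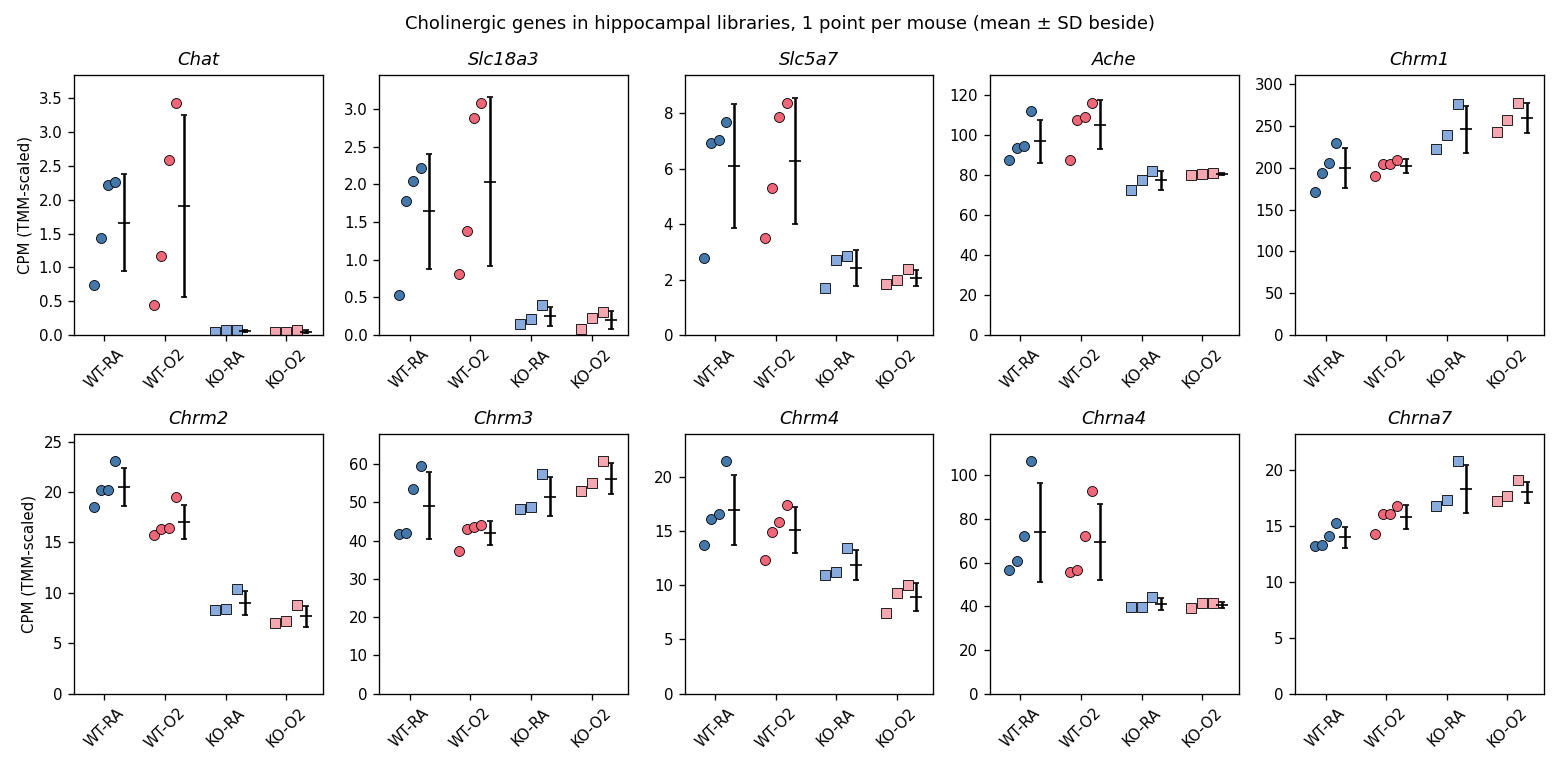
Level of each cholinergic gene in CPM (y axis, from 0) in each mouse of the 4 groups (x axis). Circles are WT mice, squares KO mice, and the bar beside each group is the mean ± SD (n = 4 for WT groups, n = 3 for KO groups). Chat and Slc18a3 lie near 0 in all 6 KO mice, and Chrm2 lies below 10.4 CPM in KO mice and above 15.7 CPM in WT mice.

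Chat, the enzyme gene that defines a cholinergic neuron, was nearly absent from KO libraries. In WT-RA mice it was at 2.25, 2.22, 0.742 and 1.43 CPM, and in WT-O2 mice at 0.44, 2.58, 1.17 and 3.44 CPM. In KO-RA mice it was at 0.0371, 0.07 and 0.0712 CPM, and in KO-O2 mice at 0.0716, 0.0367 and 0.0375 CPM, which is 1 or 2 reads in each of the 6 KO libraries. The lowest WT mice, GSD400 in room air and GSD404 under hyperoxia, still held 21.2 and 12 estimated counts, so no KO mouse reached any WT mouse. The fitted log2 fold change was -4.70 ± 0.81 (SE, q = 0.00244) in KO-RA vs WT-RA and -5.17 ± 0.83 (q = 0.00258) in KO-O2 vs WT-O2. With so few reads a fitted value depends on the prior count, so the summed counts are given too. Chat summed to 5 counts in KO-RA against 186 in WT-RA, a level 27.8-fold lower after scaling (95% exact interval 11.7 to 86.5), and to 4 against 216 under hyperoxia, 39.5-fold lower (15.2 to 146). These intervals cover counting error only. Markers of neighbouring regions moved with Chat. Lhx8, which marks cholinergic neurons of the basal forebrain and striatum, held 10 to 49 counts per library in WT mice and 0 to 2 in KO mice. It is 1 of 10 such markers, of which 9 had a negative log2 fold change in each genotype comparison. Zic5 averaged higher in KO mice, at 7.37 against 6.89 CPM in room air and 7.45 against 6.45 CPM under hyperoxia. The 12 striatal projection neuron markers summed to 470.1 to 1073 CPM in WT mice and 216 to 325 CPM in KO mice. In bulk tissue, fewer cholinergic cells, less RNA per cell and less tissue of neighbouring regions in the dissected sample cannot be told apart, here or for the other members.

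Slc18a3, the vesicle transporter gene, was the next lowest. It was at 1.78, 2.22, 0.53 and 2.04 CPM in WT-RA mice and at 0.806, 3.08, 1.38 and 2.88 CPM in WT-O2 mice. KO-RA mice had 0.149, 0.21 and 0.391 CPM, and KO-O2 mice had 0.0716, 0.22 and 0.3 CPM. The highest KO mouse, GSD496 with 11 counts, lay below the lowest WT mouse, GSD400 with 15, and the lowest WT mice were the ones lowest in Chat. The log2 fold change was -2.69 ± 0.62 (q = 0.0126) in room air and -3.35 ± 0.64 (q = 0.00638) under hyperoxia. By summed counts, the KO level was 15.3% of the WT level in room air (95% exact interval 9.25 to 24.1) and 9.56% under hyperoxia (5.37 to 15.9), against 3.6% (1.16 to 8.56) and 2.53% (0.684 to 6.58) for Chat. The same Lhx8 and striatal marker levels stand beside this difference and that of Slc5a7.

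Slc5a7, which imports choline into cholinergic endings, fell less. WT-RA mice had 7.67, 7.04, 2.79 and 6.92 CPM and WT-O2 mice 3.52, 8.39, 5.31 and 7.85 CPM. KO-RA mice had 2.71, 1.68 and 2.85 CPM and KO-O2 mice 1.97, 2.38 and 1.84 CPM. The groups were apart under hyperoxia, but in room air WT mouse GSD400 lay between KO mice. The log2 fold change was -1.34 ± 0.35 (q = 0.0245) in room air and -1.60 ± 0.35 (q = 0.0147) under hyperoxia, and the room air call was lost without KO-RA mouse GSD490 (log2 -1.13, q = 0.107). The KO level was 39.2% of the WT level in room air and 32.9% under hyperoxia.

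The ratios of the presynaptic genes to each other within a library are given as a description, since they were computed after the values above were seen. Slc18a3 made up 51.6% ± 7.87 (SD, n = 8) of the summed counts of Slc18a3 and Chat in WT mice and 77% ± 14.1 (n = 6) in KO mice. The KO sums held only 4 to 13 counts per library, and mouse GSD491 with 4 counts stood at 50%, inside the WT range of 41.5% to 64.6%. Slc5a7 made up 78.9% ± 5.71 of its sum with Chat in WT mice and 97.5% ± 1.04 in KO mice. All 6 KO mice exceeded all 8 WT mice, with rounded ranges of 96% to 98.6% in KO mice and 69.5% to 88.8% in WT mice.

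Ache, whose enzyme splits acetylcholine and which is also made by cells that receive cholinergic input, was modestly lower. It was at 112, 94.5, 87.4 and 93.5 CPM in WT-RA, 87.6, 108, 109 and 116 CPM in WT-O2, 77.7, 82.1 and 72.3 CPM in KO-RA, and 80.6, 81.2 and 80 CPM in KO-O2. The genotypes did not overlap, since the highest KO mouse had 82.1 CPM and the lowest WT mouse 87.4 CPM. The KO level was 79.9% of the WT level in room air (log2 -0.32 ± 0.09, q = 0.043) and 76.5% under hyperoxia (log2 -0.38 ± 0.09, q = 0.0275). The room air value sits at the fold threshold, and its call was lost in 10 of 21 alternatives, among them DESeq2 (log2 -0.31) and the fits without GSD398 (log2 -0.24), GSD406, GSD408, GSD489 or GSD496. The hyperoxia call was lost without KO-O2 mouse GSD495 (log2 -0.38) and with GSD408 counted as room air (log2 -0.33). In GENCODE M21, 98 exonic bases of Ache, 329 of Chrm1 and 142 of Chrm2 also belong to exons on the opposite strand, and whether the counting used strand is not given in the sources used here.

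**Figure D2:**
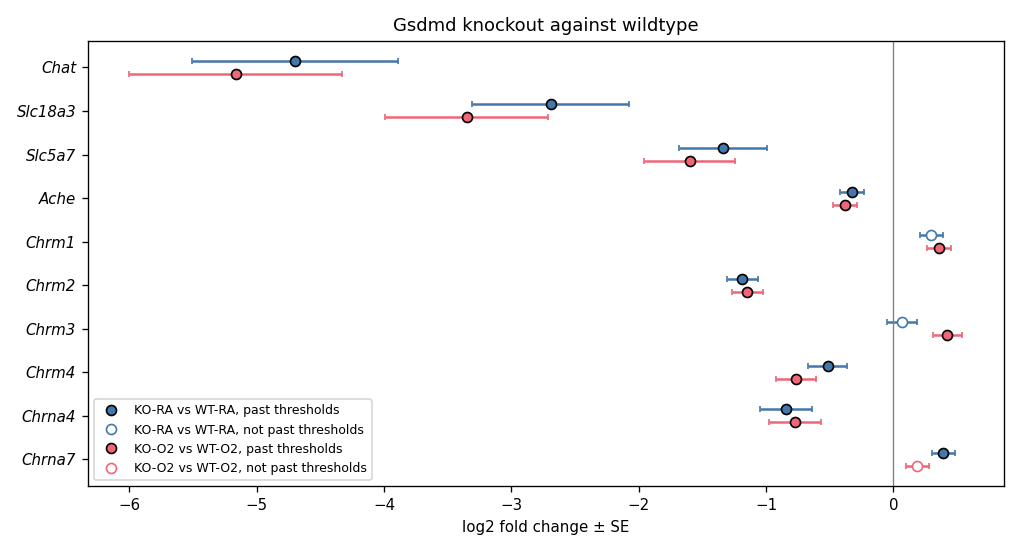
Log2 fold change ± SE (x axis) of each cholinergic gene (y axis) in KO-RA vs WT-RA (blue) and KO-O2 vs WT-O2 (red). Filled points passed the thresholds and open points did not. Chat lies at -4.70 and -5.17, and Chrm1 and Chrna7 lie to the right of 0 in both comparisons.

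Among the muscarinic receptors, Chrm2, the inhibitory receptor that often sits on cholinergic and GABAergic terminals as an autoreceptor or heteroreceptor, had the smallest q of all members. It was at 20.2, 23, 18.5 and 20.2 CPM in WT-RA and 16.3, 19.5, 16.4 and 15.7 CPM in WT-O2. It was at 8.28, 8.36 and 10.4 CPM in KO-RA and 8.84, 7.19 and 6.98 CPM in KO-O2. The WT and KO mice were widely separated, and each group was tight. Chrm2 was 2.28-fold lower in room air (log2 -1.19 ± 0.12, q = 7.89e-05) and 2.22-fold lower under hyperoxia (log2 -1.15 ± 0.12, q = 1.22e-04).

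Chrm4, the other inhibitory muscarinic receptor, which striatal projection neurons express strongly, was also lower. It ran from 13.7 to 21.4 CPM in WT-RA, from 12.3 to 17.4 CPM in WT-O2, from 10.9 to 13.4 CPM in KO-RA and from 7.46 to 9.99 CPM in KO-O2. The log2 fold change was -0.52 ± 0.15 (q = 0.0471) in room air, where the highest KO mouse nearly reached the lowest WT mouse, and -0.76 ± 0.16 (q = 0.00985) under hyperoxia. The room air call was lost without WT-RA mouse GSD400 (log2 -0.38), KO-RA mouse GSD489 (log2 -0.48) or KO-RA mouse GSD490 (log2 -0.46). The striatal marker sum was also lower in KO mice, at 470.1 CPM or more in WT mice and 325 CPM or less in KO mice. Within the WT mice, Chrm4 did not clearly follow the mean log2 CPM of these markers. Pearson r was 0.348 (adjusted exact permutation p = 0.549), and -0.67 without GSD404 and GSD408.

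The excitatory muscarinic receptors were not lower in KO mice. Chrm1, the main muscarinic receptor of hippocampal pyramidal cells, was at 200 ± 24.2 CPM (SD, n = 4) in WT-RA, 202 ± 8.67 CPM (n = 4) in WT-O2, 246 ± 27.9 CPM (n = 3) in KO-RA and 259 ± 17.9 CPM (n = 3) in KO-O2. Under hyperoxia it was higher in KO mice (log2 0.36 ± 0.09, q = 0.0355) with no overlap, a call lost without KO-O2 mouse GSD495 (log2 0.30). In room air the difference was 1.23-fold (log2 0.30 ± 0.09, q = 0.0557), short of the fold threshold, and WT mouse GSD400 at 230 CPM exceeded KO mouse GSD496 at 222 CPM. Without either of these mice the room air difference passed (log2 0.38 each). The summed hippocampal principal neuron markers moved with Chrm1, at 1044 to 1510 CPM in WT mice and 1816 to 2203 CPM in KO mice. Chrm3 was at 55, 53 and 60.7 CPM in KO-O2 against 44, 43.5, 43 and 37.2 CPM in WT-O2 (log2 0.42 ± 0.12, q = 0.0451). In room air Chrm3 was at 57.4, 48.4 and 48.8 CPM in KO mice and 42, 53.4, 59.6 and 41.9 CPM in WT mice, which overlapped (log2 0.07 ± 0.12, q = 0.8). The hyperoxia call of Chrm3 was lost without WT-O2 mouse GSD408 (log2 0.38), without KO-O2 mouse GSD491 (log2 0.44), without KO-O2 mouse GSD495 (log2 0.37) and with GSD408 counted as room air (log2 0.37).

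The nicotinic subunits went in opposite directions. Chrna4, a subunit of high-affinity nicotine receptors that thalamic neurons express strongly, was at 106, 72.1, 60.5 and 56.5 CPM in WT-RA and 56.6, 55.8, 72.2 and 92.9 CPM in WT-O2, against 39.6, 44.1 and 39.6 CPM in KO-RA and 41.4, 41.3 and 39 CPM in KO-O2. The KO mice formed a narrow band below a wide WT spread, whose highest mice were GSD398 and GSD408. Chrna4 was 1.8-fold lower in room air (log2 -0.84 ± 0.20, q = 0.0156) and 1.71-fold lower under hyperoxia (log2 -0.77 ± 0.20, q = 0.0362), and the latter call was lost without WT-O2 mouse GSD408 (log2 -0.59), KO-O2 mouse GSD491 (log2 -0.79) or KO-O2 mouse GSD495 (log2 -0.75), and with GSD408 counted as room air (log2 -0.6). The summed thalamic markers were at 218.6 to 1107 CPM in WT mice and 237.8 to 262 CPM in KO mice. These ranges overlapped, unlike those of Chrna4, since WT mouse GSD400 had the lowest sum. Chrna7, found on hippocampal interneurons and principal cells, was at 13.3, 13.2, 14.1 and 15.3 CPM in WT-RA and 20.8, 16.8 and 17.4 CPM in KO-RA. The groups did not overlap, and Chrna7 was 1.31-fold higher in KO-RA (log2 0.39 ± 0.09, q = 0.0138), a call lost without KO-RA mouse GSD489 (log2 0.29). Under hyperoxia it was at 16.8, 16.1, 16.1 and 14.3 CPM in WT mice and 17.6, 17.2 and 19.1 CPM in KO mice, which did not overlap but did not pass (log2 0.19 ± 0.09, q = 0.29).

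The hyperoxia comparisons asked whether O2 exposure moved these genes within a genotype. In WT-O2 vs WT-RA, 0 of the 10 members passed by edgeR and 0 by DESeq2, where 0.643% of all genes passed by edgeR and 306 genes passed by DESeq2. The edgeR count over all genes, 107, ran from 13 without WT-O2 mouse GSD405 to 272 without WT-RA mouse GSD398, and it was 22 without GSD399, 33 without GSD404, 59 without GSD406, 64 without GSD490, 177 without GSD401 and 6 with GSD408 counted as room air, with 0 members among them each time. By edgeR 2 members had an unadjusted p below 0.05, as did 12.2% of all genes. In KO mice, 0 passed by either tool, where 0.012% of all genes passed by edgeR and 13 genes passed by DESeq2. By edgeR 1 member had an unadjusted p below 0.05, as did 4.86% of all genes. No member had groups without overlap in WT, where 5.99% of all genes did, and 1 did in KO, where 11.8% of all genes did. The log2 fold changes of the members ran from -0.27 to 0.31 in WT and from -0.41 to 0.13 in KO. For Chat and Slc18a3 the standard errors were 0.46 and 0.44 in WT and 1.43 and 0.83 in KO, so hyperoxia differences in these genes were poorly bounded at this depth and spread.

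The lowest unadjusted p values under hyperoxia belonged to muscarinic receptors. Chrm2 averaged 20.5 ± 1.88 CPM in WT-RA and 17 ± 1.69 CPM in WT-O2 (log2 -0.27 ± 0.10, unadjusted p = 0.0221 and q = 0.308 in edgeR's quasi-likelihood test), and 9 ± 1.17 CPM in KO-RA and 7.67 ± 1.02 CPM in KO-O2 (log2 -0.23 ± 0.13, q = 0.997). Chrm3 averaged 49.2 ± 8.78 CPM in WT-RA and 41.9 ± 3.17 CPM in WT-O2 (log2 -0.23 ± 0.11, edgeR unadjusted p = 0.049, q = 0.408), and the groups overlapped. Chrm4 was at 11.2, 10.9 and 13.4 CPM in KO-RA and 9.99, 9.28 and 7.46 CPM in KO-O2, without overlap (log2 -0.41 ± 0.17, edgeR unadjusted p = 0.0271, q = 0.997). None of these differences passed on q, and those of Chrm2 and Chrm3, at most 1.2-fold, were also short of the fold threshold.

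The interaction, which asks whether the hyperoxia effect differed between KO and WT, was passed by 0 of the 10 members by edgeR and 0 by DESeq2, where 0% of all genes passed. Chrm3 alone had an unadjusted p below 0.05 (log2 0.36 ± 0.16, edgeR unadjusted p = 0.0461, q = 1), with its mean lower under hyperoxia in WT and higher in KO, and 4.05% of all genes had a p below 0.05. The sizes of the genotype difference in room air and under hyperoxia were therefore not shown to differ for any member.

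**Figure D3:**
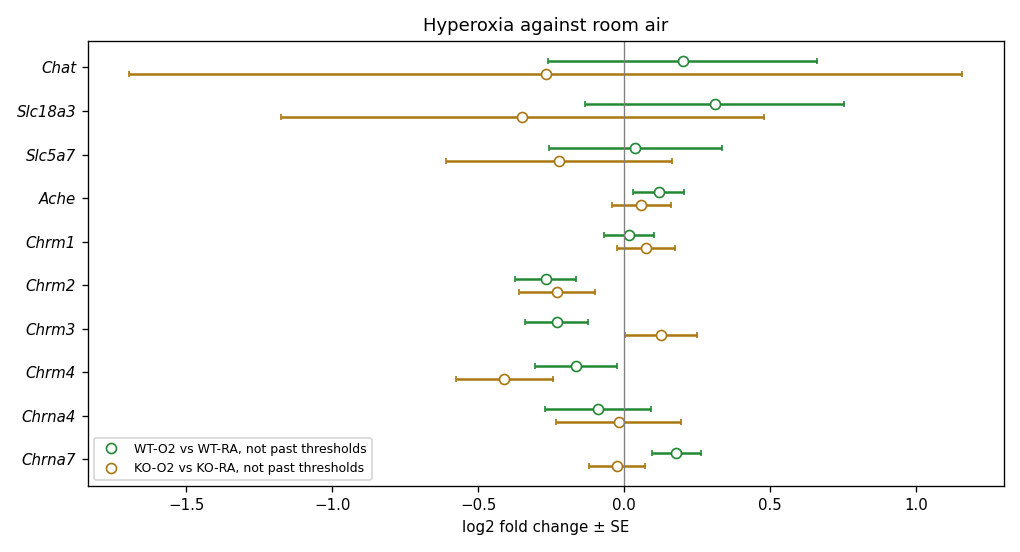
Log2 fold change ± SE (x axis) of each cholinergic gene (y axis) in WT-O2 vs WT-RA (green) and KO-O2 vs KO-RA (brown). All points are open because no member passed the thresholds, and the SE of Chat in KO mice, at 1 or 2 reads per library, spans 1.43 on either side.

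Of 30 further genes of the cholinergic system that are not among the 10 members, 29 were in the table and 25 were tested. In KO-RA vs WT-RA 10 of them passed, 3 higher and 7 lower, with a median log2 fold change of -0.08 over the 25, where 10.4% of all genes passed. Under hyperoxia 5 passed, 1 higher and 4 lower, with a median of -0.15, where 6.86% of all genes passed. Genes that anchor acetylcholinesterase were lower. Prima1, the membrane anchor of brain acetylcholinesterase, was at 2.61 to 5.06 CPM in WT-RA and 1.07 to 1.15 CPM in KO-RA (log2 -1.77 ± 0.31, q = 0.00287) and was lower also under hyperoxia (log2 -1.56 ± 0.32, q = 0.00876). Colq, the collagen tail of the enzyme, was lower in room air (log2 -1.66 ± 0.46, q = 0.0318) and did not pass under hyperoxia (log2 -0.53 ± 0.46, q = 0.601).

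Among the other receptor subunits, Chrna10 was lower in KO mice in both exposures (log2 -2.65 ± 0.70, q = 0.027 in room air and -2.43 ± 0.75, q = 0.0764 under hyperoxia), with 0 to 3.8 counts in KO libraries and 6.92 to 21 in WT libraries. Chrna6 (log2 -1.48 ± 0.37, q = 0.0207) and Chrna3 (log2 -0.91 ± 0.33, q = 0.0972) were lower in room air, and neither passed under hyperoxia (log2 -0.52 ± 0.36, q = 0.496 and log2 -0.87 ± 0.32, q = 0.147). Chrna5, an accessory subunit, was higher in KO mice in both exposures. It averaged 9.23 ± 0.362 CPM in KO-RA and 4.07 ± 1.52 CPM in WT-RA (log2 1.18 ± 0.26, q = 0.011), and 8.94 ± 1.11 CPM in KO-O2 and 4.76 ± 1.56 CPM in WT-O2 (log2 0.91 ± 0.26, q = 0.0572). Chrm5, the muscarinic receptor found mainly on dopamine neurons, averaged 4.66 ± 0.556 CPM in KO-RA and 2.2 ± 0.373 CPM in WT-RA (log2 1.08 ± 0.19, q = 0.00295). Under hyperoxia Chrm5 averaged 3.66 ± 0.453 CPM in KO mice and 3.33 ± 0.839 CPM in WT mice (log2 0.14 ± 0.19, q = 0.786). Chrna1, a subunit of the muscle receptor, was higher in KO mice in room air (log2 0.88 ± 0.27, q = 0.0563) and did not pass under hyperoxia (log2 0.69 ± 0.27, q = 0.163). The subunit genes thus moved in both directions.

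Proteins of the Ly6 family bind nicotinic receptors from outside the channel. Lypd1 was lower in KO mice under hyperoxia (log2 -0.93 ± 0.19, q = 0.00807) and did not pass in room air (log2 -0.34 ± 0.18, q = 0.288). Lypd6b was lower in room air (log2 -1.01 ± 0.21, q = 0.00643) and did not pass under hyperoxia (log2 -0.31 ± 0.20, q = 0.462). The means of Lynx1, Lypd6, Ly6e and Ly6h ran both ways. In room air they were 541, 30.1, 225 and 210 CPM in KO mice and 561, 31.6, 237 and 189 CPM in WT mice. Under hyperoxia they were 536, 30.8, 222 and 216 CPM in KO mice and 506, 24.4, 200 and 240 CPM in WT mice. In WT-O2 vs WT-RA 0.643% of all genes passed, a share that moved with single mice, as given above. Of the 25, 1 passed there, which was Tmem35a, a chaperone of nicotinic receptor assembly. It rose from 48.8 ± 6.41 CPM in WT-RA to 64.1 ± 3.54 CPM in WT-O2 (log2 0.39 ± 0.08, q = 0.0675) and was at 52.4 ± 3.7 CPM in KO-RA and 47.4 ± 2.41 CPM in KO-O2. Of 16 genes that act downstream of these receptors, 5 passed in KO-RA vs WT-RA, 4 lower and 1 higher, where 10.4% of all genes passed. Under hyperoxia 3 passed, all lower, where 6.86% of all genes did. The largest were Plcb4, a phospholipase C (log2 -1.5 ± 0.29 in room air and -1.27 ± 0.29 under hyperoxia), Rgs9, which speeds the shut-off of G proteins in striatal neurons (log2 -1.40 ± 0.27 and -1.62 ± 0.27), and Adcy5, the adenylyl cyclase most typical of striatum (log2 -0.81 ± 0.12 and -0.77 ± 0.12). In room air Rgs4 (log2 -0.43 ± 0.11) and Kcnj6 (log2 0.38 ± 0.13) passed as well. The median of the 16 was -0.06 in room air and 0.04 under hyperoxia. Rgs9 also belongs to the striatal projection neuron list below, so it is counted in both lists. Likewise, Chrna3 and Chrnb4 of the further cholinergic genes also belong to the medial habenula list below.

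Markers of other regions moved with the same genotype difference. For the lists here and below, the share of all genes that passed was 10.4% in room air and 6.86% under hyperoxia. Of 12 striatal projection neuron markers, all 12 had a negative log2 fold change in each genotype comparison, and 12 passed the thresholds in room air and 11 under hyperoxia. None was at 0 in any library. The most abundant in WT mice were Ppp1r1b, Pde10a and Penk, and Penk averaged 121 ± 32.4 CPM in WT-RA and 17.3 ± 6.8 CPM in KO-RA. Of 10 markers of basal forebrain and striatal cholinergic neurons other than the members, 9 had a negative log2 fold change in each comparison, and 6 passed as lower in room air and 7 under hyperoxia, with sums of 28.7 to 73 CPM in WT and 25.7 to 32.4 CPM in KO. The most abundant of these were Ecel1, Tacr1 and Slc17a8 in WT mice and Zic5, Slc17a8 and Zic4 in KO mice. Isl1, like Lhx8 a transcription factor that specifies these neurons, held 42 to 137 counts per library in WT and 0 to 11 in KO.

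All 12 thalamic markers had a negative log2 fold change in each comparison, and 8 passed the thresholds in room air and 7 under hyperoxia. By their sum WT mouse GSD400 lay below all KO mice. The most abundant were Rora, Prkcd and Calb2 in WT mice and Calb2, Plekhg1 and Prkcd in KO mice, and Gbx2 was at 0 in at least 1 KO-RA library. Of 8 medial habenula markers, 7 had a negative log2 fold change in room air (median -0.76 over the 8) and 8 under hyperoxia (median -1.13), but 2 and 1 passed the thresholds, with sums of 87.4 to 169 CPM in WT and 88.1 to 103 CPM in KO. All 8 oligodendrocyte markers had a negative log2 fold change in each comparison, and 8 passed in room air and 4 under hyperoxia, with sums of 4941 to 19422 CPM in WT and 3390 to 5897 CPM in KO. Hippocampal principal neuron markers went the other way, with 10 of 12 positive and 2 negative in each comparison. Of these, 9 passed as higher and 1 as lower in room air and 5 passed as higher under hyperoxia, with sums of 1044 to 1510 CPM in WT and 1816 to 2203 CPM in KO.

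Other cell types of the hippocampus were checked in the same way. Astrocyte markers summed to 3818 to 4408 CPM in WT mice and to 4508 to 5260 CPM in KO mice, without overlap, and 2 of the 8 passed as higher in each comparison, with Slc1a3, a glutamate transporter, in both (log2 0.48 in room air and 0.41 under hyperoxia). Of 10 GABAergic interneuron markers, 4 passed as lower in room air, and 2 passed as lower and 1 as higher under hyperoxia, with sums of 937 to 1295 CPM in WT and 968 to 1007 CPM in KO. Slc32a1, which loads GABA into vesicles, was among those lower in both (log2 -0.58 and -0.65), as was Gad2, which makes GABA (log2 -0.42 and -0.49). The log2 fold change was positive for 4 of the 10 in room air and 3 under hyperoxia. Cck, Sst and Vip averaged higher in KO mice in both. Cck averaged 246 CPM in KO-RA and 226 CPM in WT-RA, and 236 CPM in KO-O2 and 182 CPM in WT-O2. None of the 8 microglial, 8 endothelial and mural or 8 choroid plexus markers passed in either comparison. The choroid plexus sum set single libraries apart, since it was 41 CPM in KO-RA mouse GSD489 and 114 CPM in KO-O2 mouse GSD494, against 1731 to 3439 CPM in the other KO mice and 937.3 to 2455 CPM in WT mice. GSD489 is also the mouse without which the room air count fell to 5. The part of these region and cell type differences in the members' genotype differences was not tested.

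**Figure D4:**
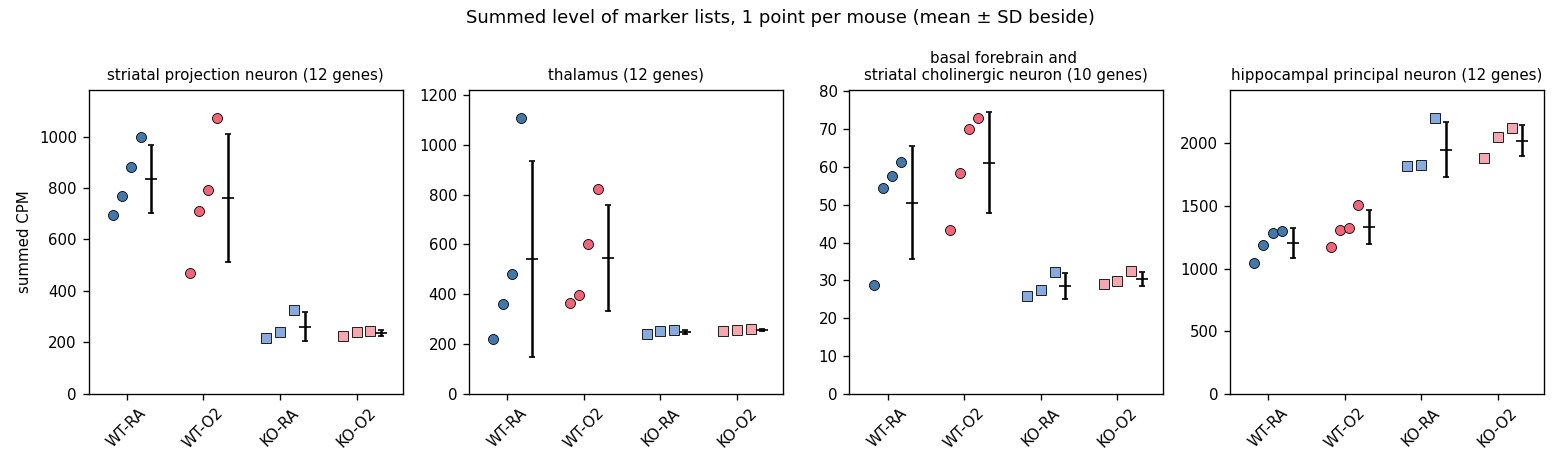
Summed CPM (y axis, from 0) of 4 marker lists in each mouse of the 4 groups (x axis), with the mean ± SD beside each group. The striatal list lies between 216 and 325 CPM in KO mice and at 470.1 CPM or more in WT mice, and the hippocampal list lies higher in KO mice than in WT mice.

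Within WT mice alone, where genotype is constant, the members were set against the mean log2 CPM of the striatal, thalamic and medial habenula lists, 30 relations in all over 8 mice. Chat rose with the striatal list (Pearson r = 0.922, exact permutation p = 5.46e-04, adjusted p = 0.0164; Spearman rho = 0.905, adjusted exact permutation p = 0.0456), and r was 0.784 without GSD404 and GSD408, the mice farthest from the median of the list. With group means removed r was 0.955. The permutation then also moved values between the exposure groups, so its p is not exact. No p is given for relations with group means removed. Chrna4 rose with the thalamic list (r = 0.883, exact permutation p = 0.00188, adjusted p = 0.0283; rho = 0.833, adjusted exact permutation p = 0.0769), and r was 0.977 without GSD398 and GSD400. Chrm1 was lower where the thalamic list was higher (r = -0.874, exact permutation p = 0.00605, adjusted p = 0.0605; rho = -0.738, adjusted exact permutation p = 0.172), but r was -0.48 without the same mice, so that relation leaned on them. With group means removed, r for Chrm1 was -0.89, and -0.528 without these mice. With DESeq2 size factors its rho was -0.905 (adjusted exact permutation p = 0.0342). By rank, Slc18a3 and Slc5a7 followed the medial habenula list (rho = 0.905 each, adjusted exact permutation p = 0.0456), and Chat did too (rho = 0.833, adjusted exact permutation p = 0.0769). Their Pearson r with it was 0.692, 0.622 and 0.607 (adjusted exact permutation p = 0.177, 0.177 and 0.226), and r was 0.913, 0.892 and 0.866 without GSD405 and GSD399. Ache rose by rank with the thalamic list (rho = 0.833, adjusted exact permutation p = 0.0769). Ache, Slc18a3 and Slc5a7 had r = 0.698, 0.675 and 0.73 with the striatal list. None had an adjusted p below 0.1 (adjusted exact permutation p = 0.159, 0.181 and 0.159). With group means removed their r was 0.904, 0.769 and 0.778. Chrm2 had r = 0.493 with the medial habenula list (adjusted exact permutation p = 0.378). With group means removed r for Chrm2 was 0.94, but 0.346 without GSD405 and GSD399. These relations describe how the libraries varied together and do not separate the sources.

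**Figure D5:**
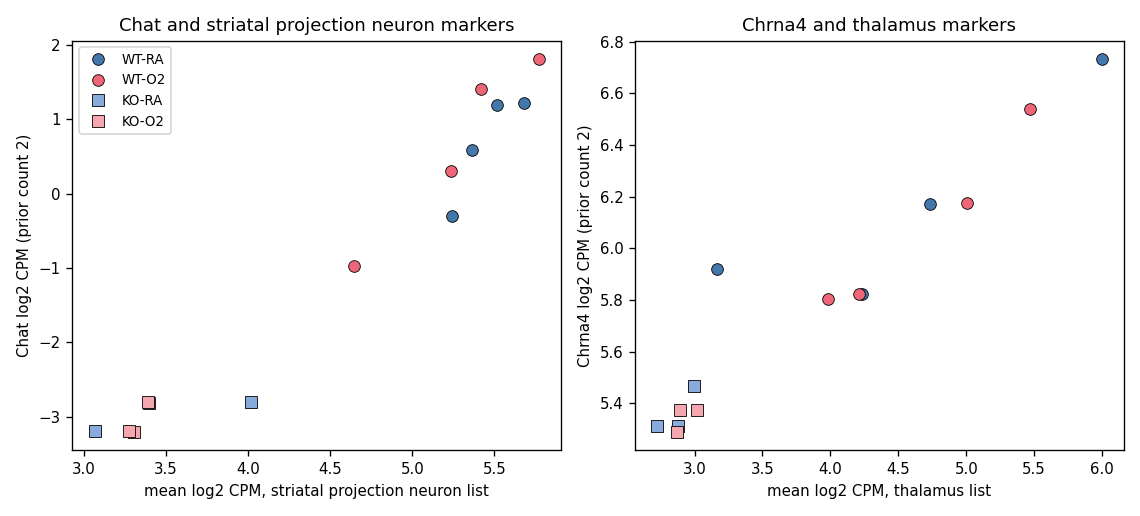
Log2 CPM of Chat (left, y axis) against the mean log2 CPM of the striatal projection neuron list (x axis), and of Chrna4 (right) against the thalamus list, 1 point per mouse. Circles are WT mice and squares KO mice, and over the 8 WT mice r was 0.922 for Chat and 0.883 for Chrna4.

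Over the same 8 WT mice, the genes whose log2 CPM varied most like Chat, among 14457 genes of at least 1 CPM that are not members, were Susd2 (r = 0.964), Penk (r = 0.956), Nipsnap2 (r = 0.948), Tchp (r = 0.928) and Phactr4 (r = 0.927). Penk encodes an opioid peptide precursor. Penk averaged 123 CPM over WT mice and 16.1 CPM over KO mice, and Susd2 averaged 7.53 and 3.07 CPM, whereas Nipsnap2 averaged 63.6 and 62 CPM. Among the members, Slc5a7 (r = 0.901), Slc18a3 (r = 0.893) and Ache (r = 0.771) were closest to Chat, with 18, 24 and 244 of those genes above them. The receptors were less like Chat, from r = 0.556 for Chrna4 to r = -0.587 for Chrm1. These values are a description over 8 mice, with no test.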

How the data were processed

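The authors sequenced polyA-selected hippocampal RNA as paired-end reads and deposited 1 table with an estimated count for each gene and library, for which Kallisto and then tximport were run on GRCm39. The versions of these tools are not given in the sources used here. Counts were rounded and filtered with filterByExpr, which left 16637 genes. After TMM scaling, all 14 libraries entered 1 fit in edgeR 4.0.16 (R 4.3.3), with 1 coefficient per group. The quasi-likelihood F-test was used, and p was adjusted by Benjamini-Hochberg over the genes tested. The SE was derived from the F statistic. CPM were scaled by TMM, and log2 CPM used a prior count of 2. Relations over mice were tested by exact permutation, two-sided. Promoters were found for 9 of the 10 members. The members and gene lists were chosen with earlier results of these data known. Named were the 10 members, the called genes of the other cholinergic list (up to 10 by size) and of the downstream list (up to 5), and the 5 genes most like Chat. Tmem35a was added after its value was seen. The fit was tested on simulated data, whose outcome is not given here. None of 91 library pairs held identical columns. The alternatives were DESeq2 1.42.0, DESeq2 size factors, other filters, a fold of 1.5, the 2 groups alone, mouse GSD408 as room air, and each mouse left out. One marker gene is not reported here.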

Additional observations from a re-analysis of the deposited data

Results flagged for a closer look

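Within the WT groups of 4 mice, 20 sets of member values were checked for a mouse far from the others by Dixon's ratio, and 2 stood apart, where chance flags about 1 in 20. Slc5a7 was at 2.79 CPM in WT-RA mouse GSD400, well below the other 3 mice of its group. GSD400 was also the lowest of its group in Chat, Slc18a3 and the thalamic and striatal sums. Chrm3 was at 37.2 CPM in WT-O2 mouse GSD408, below the other 3 mice of its group. GSD408 is the mouse whose public record names both exposures. The causes were not tested.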

How the results depend on the processing

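Of the 17 member calls, 9 were kept under every alternative run, and none changed direction. Those 9 were Chat, Slc18a3 and Chrm2 in both genotype comparisons, Slc5a7 and Chrm4 under hyperoxia, and Chrna4 in room air. Leaving out each mouse in turn gave 5 to 9 members called in KO-O2 vs WT-O2 and 5 to 8 in KO-RA vs WT-RA, and the lowest counts came without GSD495 and GSD489. Over all genes the same fits gave 4% to 8.05% called in KO-O2 vs WT-O2 and 6.37% to 11.6% in KO-RA vs WT-RA, with the lowest shares also without GSD495 and GSD489. A fold change of 1.5 left 5 called in KO-RA vs WT-RA and 6 in KO-O2 vs WT-O2, where 5.66% and 3.65% of all genes passed, and counting GSD408 as room air left 6 in KO-O2 vs WT-O2, where 4.6% passed. Leaving out both GSD398 and GSD408, chosen after seeing the data for their thalamic markers, gave 7 in room air and 9 under hyperoxia, where 10.4% and 5.99% of all genes passed. The hyperoxia comparisons and the interaction gave 0 members under every alternative run, while over all genes WT-O2 vs WT-RA (0.643%) ranged from 0.0783% to 1.64% as mice were left out and was 0.276% at a fold of 1.5 and 0.0361% with GSD408 as room air (20 genes with the 2 groups fitted alone), and KO-O2 vs KO-RA, with 2 genes, ranged from 1 to 4 as mice were left out. Of 33 values that did not pass, 14 changed sign under at least 1 alternative. Chat in WT-O2 vs WT-RA (0.20, log2) ran from -0.53 to 0.53, Slc5a7 there (0.04) from -0.20 to 0.23, and Slc18a3 in KO-O2 vs KO-RA (-0.35) from -0.77 to 0.12. Slc18a3 in WT-O2 vs WT-RA turned from 0.31 to -0.10 (log2) with GSD408 as room air, and Chrm3 in KO-RA vs WT-RA from 0.07 to between -0.017 and 0.18 as mice were left out, -0.017 being without GSD489. Of the 30 relations within WT mice, 3 had an adjusted p for Pearson r below 0.1. The count with group means removed is not given, because that permutation ignored the exposure groups. Where a result moved, the cause was not tested. No paired analysis was run, since each library came from a different mouse and no litter is given in the sources used here. With 1 or 2 reads of Chat per KO library, depth limits its fold change.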
